A study of Mus musculus with 12 samples.

Results

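The smooth muscle contractile genes described here are Myh11, Acta2, Actg2, Des, Cnn1, Smtn, Tagln, Lmod1, Mylk and Myocd, which were taken by gene name from the annotation of the array. They made up 10 of the 37074 genes and 23 of the 56605 probes that were measured. The study followed the cecum of the mouse after cautery of its wall, an injury after which fibrous bands (postoperative adhesions) form. RNA was hybridised to 12 Agilent arrays of 1 colour, in 4 groups of 3 that the study describes as biological triplicates. The groups were a sham control taken at 0 h and cecum taken at 3, 12 or 72 h after cautery. The labels name no strain, allele, antibody or other agent for any group. The methods name C57BL/6 and Wt1GFPCre mice without saying which were used for the arrays, and the age of the mice was not given in the sources used here. The injured ceca were cauterized with bipolar forceps through a midline incision under pentobarbital, and only the 0 h sham time was sampled, so that the time from surgery and the injury cannot be told apart.

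The muscle coat of the cecum is built of smooth muscle cells, which contract when calcium activates myosin light chain kinase and the phosphorylated myosin then pulls on actin filaments. The filaments are anchored in dense bodies that are joined by desmin, and are dressed with proteins such as calponin and transgelin that bind actin. Most of these genes are switched on together by serum response factor, which binds the CArG box of their promoters, and by its coactivator myocardin. Acta2 and Tagln are also known in myofibroblasts, the contractile fibroblasts of wounds, whereas Myh11 is regarded as more restricted to smooth muscle.

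The labels gave all mice as male. Xist, which is transcribed from the inactive X chromosome, was however well above background on all 12 arrays, and the Y-linked genes Ddx3y and Eif2s3y were so on 0. Of 6 probes of the Y-linked gene Kdm5d, 1 was above background on 12 arrays and the others on 0. The values of Xist, Ddx3y and Eif2s3y thus went against the label on all 12 arrays, and no result below could be given without these arrays. Each array had between 60.2% and 65.2% of its probes well above background, and 0 spots were saturated. The sham control, the 3 h arrays and 12 h replicates 1 and 2 lay on 1 slide, whereas 12 h replicate 3 and the 72 h arrays lay on another. Slide and the 72 h group can thus be separated through 1 array alone. Levels are given as log2 of a probe's intensity with the 75th percentile of its array taken away, and they compare arrays for 1 probe, not one probe with another. For each gene the brightest of its probes is given unless another is named, and differences are log2 values with limma's standard error (SE). A gene was called where it differed more than 2-fold with a Benjamini-Hochberg adjusted p below 0.05 over all probes.

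All 10 genes were lower than in the sham control at 12 h. At that time 10 of 10 were called lower, against 4.96% of all genes called lower. The median difference was -1.48, or 2.78-fold lower, and single genes ranged from -2.12 to -1.18, while the median of all genes tested was -0.01. At 3 h the fall was smaller. Smtn and Lmod1, 2 of 10 genes, were called lower beside 4.11% of all genes, with a median of -0.79 against 0.08 for all genes. By adjusted p alone, without the fold threshold, 8 of 10 were lower, beside 9.7% of all genes. At 72 h, 7 of 10 were called lower beside 4.3% of all genes, with a median of -1.46 against -0.14. No gene of the 10 was called higher at any time, where 3.26%, 4.1% and 4.55% of all genes were called higher at 3, 12 and 72 h. These 3 comparisons share the sham arrays.

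By array, the mean of the 10 genes lay at 0.05, 0.03 and -0.08 in the sham control, relative to the mean of that group. It was -1.04, -0.83 and -0.81 at 3 h, -1.71, -1.60 and -1.09 at 12 h, then -1.69, -1.34 and -1.08 at 72 h. For each of the 10 genes, the arrays of each time lay below every sham array, which was so for 17.8%, 20.8% and 24.9% of all genes at 3, 12 and 72 h. At 12 h the least lowered array was replicate 3, the only one of its group on the second slide, and its value lay among the 72 h arrays. In pieces of whole cecum, fewer smooth muscle cells and less RNA of these genes per cell cannot be told apart.

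**Figure D1:**
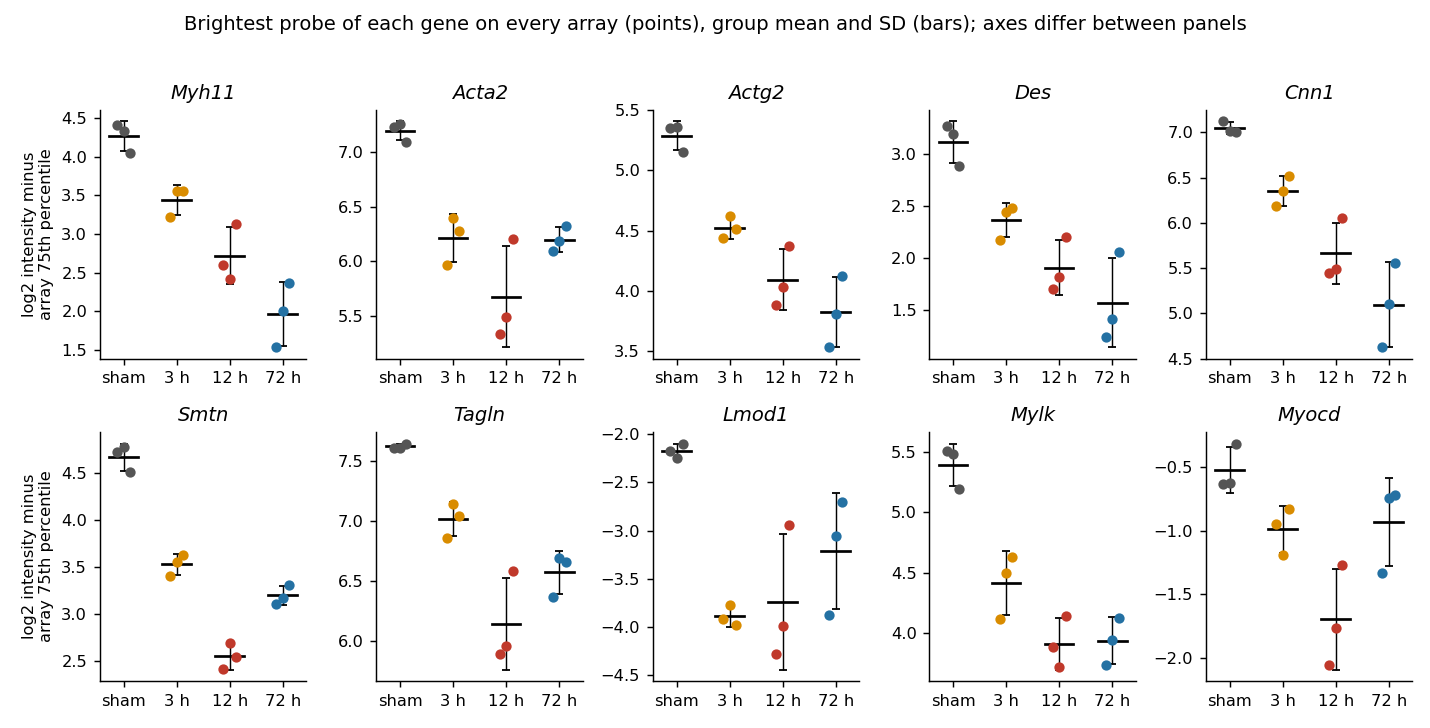
Level of the brightest probe of each of the 10 genes on each array, in log2 units relative to the 75th percentile (vertical axis), in the sham control and at 3, 12 and 72 h (horizontal axis). Points are arrays in the order of replicates 1 to 3 and bars are the mean and SD of 3 arrays. Myh11 ends at 1.53 to 2.36 at 72 h, whereas Smtn is lowest at 12 h.

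Myh11 encodes the heavy chain of smooth muscle myosin, the motor of the thick filament. Its level was 4.41, 4.33 and 4.04 in the sham control, 3.22, 3.56 and 3.55 at 3 h, 2.60, 2.42 and 3.13 at 12 h, then 1.53, 2.01 and 2.36 at 72 h. No 2 neighbouring groups overlapped, and each later group lay below the one before. The difference from sham was -0.82 ± 0.24 at 3 h (adjusted p = 0.0390, below the threshold but less than 2-fold), -1.54 at 12 h (adjusted p = 0.00150) and -2.29 at 72 h (adjusted p = 0.000220). At 72 h this was 4.90-fold lower, the largest difference at that time among the 10 genes. Myh11 was also called lower at 72 h than at 3 h, with a difference of -1.48 (adjusted p = 0.00148), whereas the step from 12 to 72 h was -0.75 (adjusted p = 0.0555) and was not called.

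The other 3 probes of Myh11 fell too. A_55_P1988531 differed from sham by -0.84, -1.65 and -2.47 at 3, 12 and 72 h. The probe A_55_P2734582, placed at chr16:14207835-14208094 (mm9, minus strand), differed from sham by -1.08, -1.94 and -2.80 at 3, 12 and 72 h. The dimmer A_55_P2733242 differed by -1.55, -1.55 and -1.72, a fall that was as large at 3 h as at 12 h. All 4 probes were called lower at 12 h and at 72 h. The sequence of A_55_P2734582 is shown because it gave the largest fall of all probes of the 10 genes, in lower case with no base marked.
Myh11 A_55_P2734582: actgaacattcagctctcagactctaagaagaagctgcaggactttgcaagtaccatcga

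Acta2 encodes the actin of vascular smooth muscle, which is also the marker by which myofibroblasts are recognised. Its level was 7.23, 7.26 and 7.10 in the sham control, 5.97, 6.39 and 6.28 at 3 h, 5.33, 5.49 and 6.20 at 12 h, then 6.09, 6.18 and 6.32 at 72 h. All 9 arrays after cautery lay below the sham arrays, and the 3 h and 72 h arrays occupied the same range. The difference from sham was -0.98 ± 0.21 at 3 h (adjusted p = 0.00992), -1.52 at 12 h (adjusted p = 0.000786) and -0.996 at 72 h (adjusted p = 0.00869). Only the 12 h difference, 2.87-fold, passed the fold threshold. At 72 h the value lay at the threshold, and it was called without sham replicate 3 (-1.05, adjusted p = 0.0194) or without 72 h replicate 3 (-1.06, adjusted p = 0.0183). At 3 h it was called without sham replicate 3 (-1.03), without 3 h replicate 2 (-1.07) or without 3 h replicate 3 (-1.01). The difference between 72 h and 12 h was 0.52, with a 95% interval from 0.06 to 0.99 and an adjusted p of 0.117. With slide as a block the 72 h difference from sham became -1.79 (adjusted p = 0.00674) and that from 12 h became -0.01.

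The probes of Acta2 did not move alike. The brightest, A_52_P420504 at chr19:34316060-34316119 (mm9, minus strand), and A_52_P210078 at chr19:34315697-34315756 lay near each other and were, of its probes, the nearest to the 3′ end. The second of these differed from sham by -0.83, -1.64 and -1.21 at 3, 12 and 72 h, and was called lower at 12 and 72 h. A_51_P450957, whose 60 bases were placed over 3255 bases of the genome at chr19:34322995-34326249 and so was split in the genome, behaved otherwise. It gave 5.07, 5.27 and 5.17 in the sham control, 5.20, 5.25 and 5.36 at 3 h, 5.11, 5.19 and 5.08 at 12 h, then 4.31, 4.52 and 4.78 at 72 h. Its differences were 0.11, -0.04 and -0.63, and it was not called at any time (adjusted p = 0.00732 at 72 h, under 2-fold), although the 72 h arrays lay below all the others. The last probe, A_52_P644232, was well above background on 1 of 12 arrays and gives no fold.

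The coding sequences of the actin genes are much alike, and the cytoplasmic actins Actb and Actg1 are abundant in every cell. The brightest Actb probe differed from sham by 0.24, 0.10 and -0.23 at 3, 12 and 72 h. The probes of Actg1 differed by 0.53 to 1.04 at 3 h, by 0.41 to 0.64 at 12 h and by -0.28 to -0.05 at 72 h. Whether these actins had a part in the signal of A_51_P450957 was not tested. The sequence of this probe is given because it took another course than the probes nearer the 3′ end. It is in lower case, with no base marked.
Acta2 A_51_P450957: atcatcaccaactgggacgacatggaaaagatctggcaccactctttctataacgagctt

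**Figure D2:**
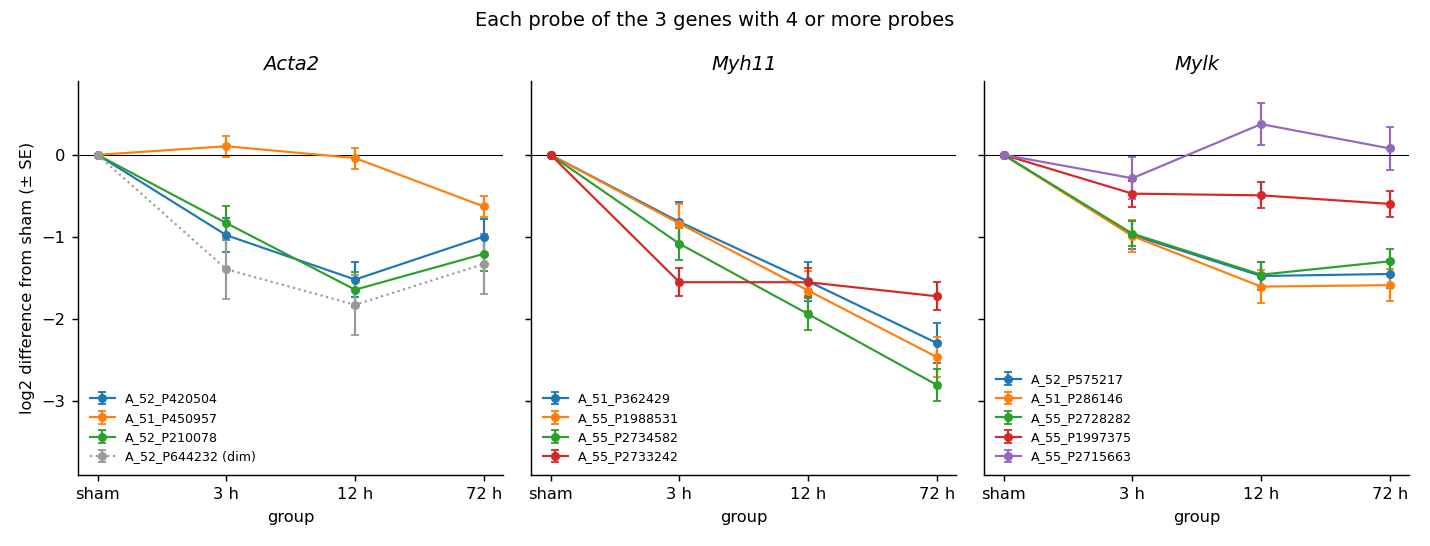
Difference from the sham control (vertical axis, log2, ± SE) of every probe of Acta2, Myh11 and Mylk at 3, 12 and 72 h (horizontal axis). The Acta2 probe A_51_P450957 stays near 0 to 12 h, the dotted Acta2 probe was above background on 1 array, and 3 of 5 Mylk probes fall alike.

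Actg2 encodes the actin of visceral smooth muscle and is the gene of this set most closely tied to the gut wall. Its level was 5.35, 5.36 and 5.15 in the sham control, 4.43, 4.62 and 4.51 at 3 h, 3.88, 4.03 and 4.37 at 12 h, then 3.53, 3.81 and 4.12 at 72 h. The 3 h arrays lay between the sham arrays and all later ones, and the 12 h and 72 h arrays overlapped. The difference from sham was -0.77 ± 0.17 at 3 h (adjusted p = 0.0119, under 2-fold), -1.20 at 12 h (adjusted p = 0.000951) and -1.47 at 72 h (adjusted p = 0.000423). The difference between 72 h and 12 h was -0.27, with a 95% interval from -0.65 to 0.11.

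Des encodes desmin, the intermediate filament that links dense bodies to one another. Its level was 3.27, 3.19 and 2.89 in the sham control, 2.18, 2.45 and 2.48 at 3 h, 1.70, 1.81 and 2.20 at 12 h, then 1.23, 1.41 and 2.05 at 72 h. The 12 h arrays overlapped with those of 3 h and of 72 h, which did not overlap with each other, and none reached the sham arrays. The difference from sham was -0.75 ± 0.22 at 3 h (adjusted p = 0.0402, under 2-fold), -1.21 at 12 h (adjusted p = 0.00362) and -1.55 at 72 h (adjusted p = 0.00123). Another, dim probe, designed on another transcript record, differed by -0.06, -0.61 and -0.71 and was not called. As a mean of both probes the 12 h difference was -0.91 and was no longer called.

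Cnn1 encodes calponin, which binds actin and restrains the myosin ATPase. Its level was 7.12, 7.01 and 7.004 in the sham control, 6.19, 6.35 and 6.52 at 3 h, 5.45, 5.49 and 6.05 at 12 h, then 4.62, 5.11 and 5.56 at 72 h. The 3 h arrays lay between sham and all later arrays. The difference was -0.69 ± 0.23 at 3 h (adjusted p = 0.0662), -1.38 at 12 h (adjusted p = 0.00236) and -1.95, or 3.86-fold lower, at 72 h (adjusted p = 0.000495). Cnn1 was called lower at 72 h than at 3 h, with a difference of -1.26 (adjusted p = 0.00305), but not after quantile normalization (-0.81). The other probe of Cnn1 differed from sham by -0.68, -1.40 and -2.09 at the 3 times.

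Tagln encodes transgelin (SM22α), a calponin-related protein that crosslinks actin. Its level was 7.61, 7.61 and 7.65 in the sham control, 6.86, 7.14 and 7.04 at 3 h, 5.89, 5.96 and 6.58 at 12 h, then 6.37, 6.70 and 6.66 at 72 h. The 12 h and 72 h arrays overlapped through 12 h replicate 3. The difference was -0.61 ± 0.18 at 3 h (adjusted p = 0.0416, under 2-fold), -1.48 at 12 h (adjusted p = 0.000393) and -1.05 at 72 h (adjusted p = 0.00322). The 72 h call was lost without 72 h replicate 1 (-0.95), after quantile normalization (-0.82) and after normexp background correction (-0.99), each under 2-fold, and with slide as a block the difference was -1.71. Against 3 h, the 12 h level differed by -0.87 (adjusted p = 0.0177), and by -1.09, a called difference, without 12 h replicate 3 or with slide as a block.

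Smtn encodes smoothelin, an actin-binding protein of contractile smooth muscle. Its level was 4.73, 4.78 and 4.51 in the sham control, 3.41, 3.56 and 3.63 at 3 h, 2.41, 2.69 and 2.55 at 12 h, then 3.11, 3.17 and 3.32 at 72 h. None of the 4 groups overlapped, with the 12 h arrays lowest and the 72 h arrays between them and the 3 h arrays. The difference from sham was -1.14 ± 0.12 at 3 h (adjusted p = 0.000277), -2.12, or 4.36-fold lower, at 12 h (adjusted p = 7.33e-06) and -1.47 at 72 h (adjusted p = 5.90e-05). Smtn had the largest difference of the 10 genes at 12 h and was called at each of the 3 times. From 12 to 72 h the level was higher by 0.65 (adjusted p = 0.00573), which was under 2-fold. With slide as a block this difference was 0.66 (adjusted p = 0.0777), while 12 h replicate 3 was not set apart from the other 12 h arrays for this gene. The other Smtn probe differed from sham by -1.16, -2.24 and -1.66.

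Lmod1 encodes leiomodin, which nucleates actin filaments in smooth muscle. Its signal was dimmer than that of most other probes but well above background on all 12 arrays. The level was -2.18, -2.25 and -2.10 in the sham control, -3.92, -3.77 and -3.98 at 3 h, -4.28, -3.98 and -2.94 at 12 h, then -3.87, -3.05 and -2.70 at 72 h. The sham and 3 h arrays were tightly grouped, whereas the 12 h and 72 h arrays were spread widely. The difference was -1.71 ± 0.35 at 3 h (adjusted p = 0.00779), -1.56 at 12 h (adjusted p = 0.0104) and -1.03 at 72 h (adjusted p = 0.0641). After normexp background correction the differences at 3 and 12 h were -0.49 and -0.55 and neither was called. With slide as a block the 72 h difference was -2.22 (adjusted p = 0.0385) and was called. It was also called without 12 h replicate 3 (-1.03, adjusted p = 0.0216) or without 72 h replicate 3 (-1.29, adjusted p = 0.0422), with replicate number as a block (adjusted p = 0.0465) and over only the probes above background (adjusted p = 0.0373).

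**Figure D3:**
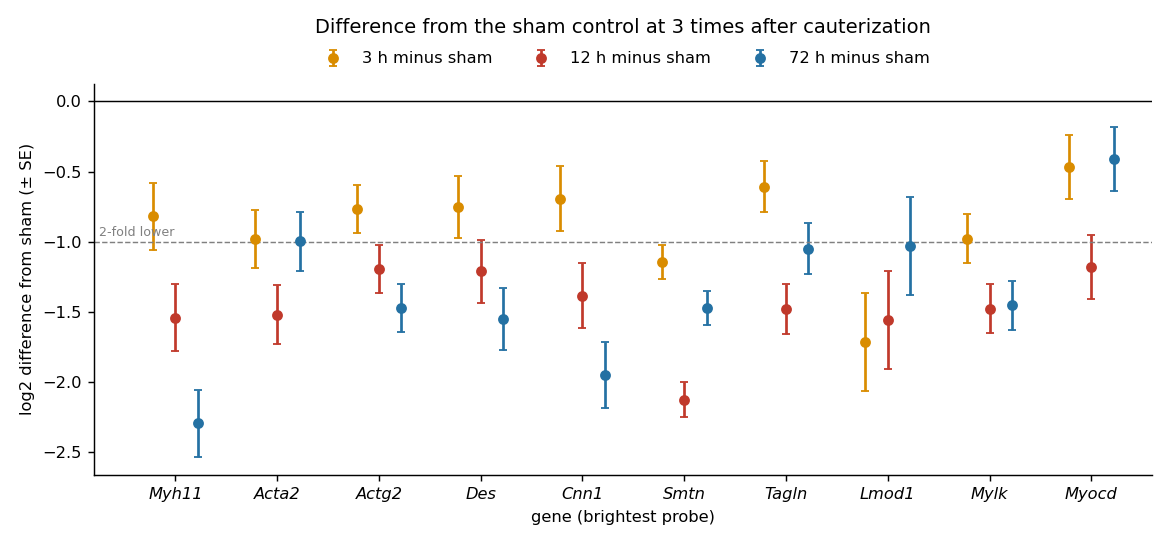
Difference from the sham control (vertical axis, log2) of the brightest probe of each gene (horizontal axis) at 3, 12 and 72 h. Points are fitted differences of 3 against 3 arrays, bars are ± SE, and the dashed line marks 2-fold lower. Every point lies below 0, and at 12 h all lie below the dashed line.

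Mylk encodes myosin light chain kinase, the enzyme that starts contraction. Its level was 5.50, 5.48 and 5.19 in the sham control, 4.12, 4.50 and 4.63 at 3 h, 3.88, 3.72 and 4.14 at 12 h, then 3.74, 3.94 and 4.13 at 72 h. The 12 h and 72 h arrays occupied the same range, which reached the lowest 3 h array. The difference was -0.98 ± 0.18 at 3 h (adjusted p = 0.00413), -1.48 at 12 h (adjusted p = 0.000333) and -1.45 at 72 h (adjusted p = 0.000515). The 3 h value was just under 2-fold, and it was called without sham replicate 3 (-1.08), without 3 h replicate 2 (-1.02) or without 3 h replicate 3 (-1.08). Between 72 h and 12 h the difference was 0.02, with a 95% interval from -0.37 to 0.41. The 3 probes designed on the RefSeq transcript were all called lower at 12 h and at 72 h. Those designed on other records were A_55_P1997375, at -0.47, -0.49 and -0.60, and A_55_P2715663, at -0.28, 0.37 and 0.08, and neither was called. As a mean of all 5 probes, Mylk was -0.93 at 12 h and -0.97 at 72 h, and was not called.

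Myocd encodes myocardin, the coactivator of serum response factor. Its level was -0.63, -0.63 and -0.31 in the sham control, -0.95, -1.19 and -0.83 at 3 h, -2.06, -1.77 and -1.27 at 12 h, then -1.33, -0.74 and -0.72 at 72 h. The 12 h arrays were the lowest group, and the 72 h arrays overlapped with both the 3 h and the 12 h arrays. The difference was -0.47 ± 0.23 at 3 h (adjusted p = 0.175), -1.18 at 12 h (adjusted p = 0.00489) and -0.41 at 72 h (adjusted p = 0.251, 95% interval from -0.91 to 0.10). The 12 h call was lost without 12 h replicate 1 (-0.999, just under 2-fold) and after normexp background correction (-0.75). From 12 to 72 h the level was higher by 0.77 (adjusted p = 0.0425, under 2-fold), and by 0.34 (adjusted p = 0.491) with slide as a block. That block moved the 72 h difference from sham to -1.05 (adjusted p = 0.146).

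The promoter of a member is shown to place these genes beside the CArG box through which myocardin and serum response factor act. RefSeq promoters were at hand for 6 of the 10 genes, namely Acta2, Des, Cnn1, Smtn, Lmod1 and Mylk. A strict CArG box, which is CC, then 6 bases of A or T, then GG, was found in 0 of these 6 windows of 250 bases before the start, and in 1.47% of all 32851 windows. With 1 G or C allowed among the 6 inner bases it was found in 1 of 6 windows, that of Acta2, and in 8.59% of all windows. With only 6 windows, neither count can set these genes apart from all genes. Sites outside the 250 bases were not searched. The motif was searched on the strand of the gene, and this pattern gives the same positions on the opposite strand. In Acta2 the matches began 84 and 34 bases before the start. They are in capitals in the sequence of chr19:34255374-34255623 (GRCm38.p6, minus strand).
Acta2 promoter: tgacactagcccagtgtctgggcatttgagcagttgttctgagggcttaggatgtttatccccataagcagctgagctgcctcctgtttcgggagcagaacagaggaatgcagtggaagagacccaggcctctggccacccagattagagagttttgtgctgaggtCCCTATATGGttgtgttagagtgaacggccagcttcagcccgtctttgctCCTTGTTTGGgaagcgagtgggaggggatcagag

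Over all probes, 22 of 23 differed among the 4 groups by limma's moderated F-test with an adjusted p below 0.05, where 38.5% of all probes did. The exception was the Mylk probe A_55_P2715663. Probes called lower numbered 6 of 23 at 3 h, 19 at 12 h and 16 at 72 h, beside 4.37%, 5.08% and 4.13% of all probes, and these counts include the dim Acta2 probe A_52_P644232 at each of the 3 times. Called higher were 0 probes, beside 2.96%, 3.85% and 4.13% of all.

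Between the later times, few of the 10 genes passed the call. At 12 h against 3 h, 0 genes were called, where 1.56% of all genes were called lower and 1.89% higher, and 2 were lower with an adjusted p below 0.05 alone, namely Smtn (-0.98) and Tagln (-0.87), beside 5.15% of all genes. At 72 h against 12 h, 0 were called, where 4.33% of all genes were called higher and 3.19% lower, and Smtn and Myocd were higher with an adjusted p below 0.05 alone, beside 8.75% of all genes. At 72 h against 3 h, 2 of 10 were called lower, Myh11 and Cnn1, beside 5.51% of all genes (6.19% higher), and Actg2 (-0.70) and Des (-0.80) had adjusted p-values of 0.0120 and 0.0214. By adjusted p alone, 4 of 10 were thus lower at 72 h than at 3 h, beside 26.8% of all genes. The order of the group means was sham, 3 h, 12 h and 72 h from high to low for Myh11, Actg2, Des and Cnn1. For Smtn, Tagln, Acta2, Mylk and Myocd the 12 h mean was the lowest, and for Lmod1 it was the 3 h mean.

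A difference between 2 probes of the same array is not changed by taking away the percentile of that array. The other genes were set against Myh11 in this way, first Acta2 and Tagln, which are also known in myofibroblasts. Acta2 minus Myh11 was between 2.82 and 3.05 in the sham control, between 2.73 and 2.83 at 3 h, between 2.74 and 3.07 at 12 h. At 72 h it was between 3.96 and 4.56. Only the 72 h arrays stood apart. Relative to Myh11, Acta2 differed from the sham control by -0.16 at 3 h (p = 0.2, two-sided exact permutation test), and differed by 0.02 at 12 h (p = 0.8, exact permutation test) and by 1.30, or 2.46-fold, at 72 h (p = 0.1, exact permutation test). With 3 arrays in each group, 0.1 is the smallest p that this test can give. Tagln minus Myh11 was between 3.21 and 3.61 in the sham control and between 4.30 and 4.83 at 72 h, a difference of 1.24 (p = 0.1, exact permutation test). At 3 h and 12 h it was 0.21 and 0.06 (p = 0.3 and 0.7, exact permutation tests). On the second slide alone, the 72 h arrays were above 12 h replicate 3 by 1.16 for Acta2 and by 1.16 for Tagln. Since Myh11 had the largest fall of the 10 genes at 72 h, each of the other 9 was higher relative to it at that time. The shift of Acta2 and Tagln was within the range of the others, which was 1.89 for Myocd, 1.26 for Lmod1, 0.84 for Mylk, 0.83 for Actg2, 0.82 for Smtn, 0.74 for Des and 0.35 for Cnn1. For each of the 9 genes the 72 h arrays lay above all sham arrays on this measure. At 12 h the differences from Myh11 ranged from -0.58 for Smtn to 0.37 for Myocd. The probe A_51_P450957 of Acta2, with its different course, was not part of this comparison.

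**Figure D4:**
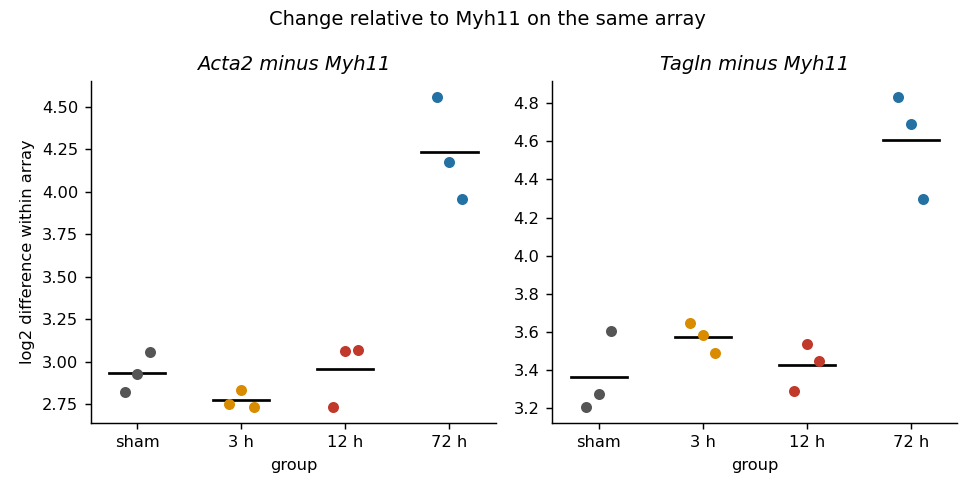
Level of Acta2 (left) and Tagln (right) minus that of Myh11 on the same array (vertical axes, log2), by group (horizontal axis). Points are arrays and lines are means of 3, and the offset from 0 has no meaning between probes. For Acta2 the 72 h arrays lie at 3.96 to 4.56 and all others at or below 3.07.

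Over the 12 arrays, the Pearson correlation of the levels was between 0.512 and 0.992 for the 45 pairs of these genes, with a median of 0.841. After the mean of each group was taken away it was between 0.147 and 0.942, with a median of 0.755, and above 0 for 45 of 45 pairs. The arrays share their scaling and the pieces of tissue, so the pairs are not independent. Outside the 10 genes, the genes most like their mean over the 12 arrays, among 17262 compared, were Gnao1 (r = 0.986), Synm (r = 0.982), 6330403A02Rik (r = 0.981), Asic4 (r = 0.978) and Dmpk (r = 0.976). Gnao1 encodes a G protein subunit that is abundant in neurons, Synm the desmin-binding synemin, Asic4 an ion channel subunit and Dmpk the kinase of myotonic dystrophy. Synm differed from sham by -1.10, -1.99 and -2.18 at 3, 12 and 72 h, and Gnao1 by -1.14, -1.86 and -1.53.

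Other genes of the contractile apparatus moved in both directions. Beside the counts in this and the following lists, 4.11%, 4.96% and 4.3% of all genes were called lower at 3, 12 and 72 h. The shares of all genes called higher were 3.26%, 4.1% and 4.55%. Of 9 filament partners, 2 were called lower at 12 h and at 72 h, with list medians of -0.43 and 0.00. They were Tpm2, a muscle tropomyosin (-1.21 and -1.50), and Myl9, the regulatory myosin light chain (-1.34 and -1.27). Tpm4, a tropomyosin of non-muscle cells, was called higher at 3 h, just past 2-fold, and at 12 and 72 h (1.06 and 1.39). Myh10, a non-muscle myosin, differed by -0.99 and -0.96 at 3 and 12 h, which was not called, and was called higher at 72 h (1.06).

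Among 16 genes of dense bodies, cell adhesion and intermediate filaments, 4, 5 and 3 were called lower at 3, 12 and 72 h, with medians of -0.42, -0.43 and -0.15. At 12 h the largest falls were those of Pdlim3, a protein of dense bodies and Z discs (-2.52), Itga8, an integrin of smooth muscle (-2.41), and Synpo2, an actin-bundling protein (-2.03). At 72 h Itga8 was at -0.18 and was not called, whereas Pdlim3 (-1.38) and Synpo2 (-1.79) were. Called against this direction were Itga5, the fibronectin receptor subunit, at all 3 times (1.32, 1.36 and 1.37), and Vim, the intermediate filament vimentin of fibroblasts and other mesenchymal cells, at 72 h (1.88).

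Of 8 genes that control myosin light chain phosphatase, 2, 3 and 1 were called lower at 3, 12 and 72 h and 0 higher, with medians of -0.15, -0.33 and -0.19. Ppp1r12b, a myosin-targeting subunit of the phosphatase, was called at each time (-1.48, -1.42 and -1.17). Ppp1r14a, which encodes the phosphatase inhibitor CPI-17, was called at 3 and 12 h (-1.35 and -1.18). Prkg1, the cGMP-dependent kinase of relaxation, was called at 12 h (-1.41) and stood at -0.01 at 72 h.

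Genes of calcium handling and excitation had the lowest list median of the contractile lists at 12 h, at -1.11, with 7 of 13 called lower. At 3 h and at 72 h 4 were called lower, with medians of -0.55 and -0.74. Chrm2, the muscarinic receptor most abundant in gut muscle, fell at all 3 times (-2.27, -3.01 and -2.30), as did Ryr2, a calcium release channel (-1.31, -2.02 and -1.51). Casq2, a calcium store protein, stood at -1.08, -3.47 and -0.93 at 3, 12 and 72 h, the last not called. Pln, the regulator of the calcium pump, was called lower at 12 h, where its probe was well above background on 1 of 3 arrays. The Ryr2 probe was so on 2 of 3 arrays at 12 h. Chrm3, the muscarinic receptor that couples to contraction, was called higher at each time, and its probe was well above background on 2 of 3 sham arrays.

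Of 12 listed names of regulators of smooth muscle transcription, 10 were found on the array. Mrtfa and Mrtfb, which were not, are other names of the listed Mkl1 and Mkl2. At 3 and 12 h 1 of the 10 was called lower, beside 4.11% and 4.96% of all genes, and at 72 h 0, beside 4.3%. That gene was Meis1, a homeobox factor (-1.82 and -1.44, then -0.06). Srf itself differed by -0.30, -0.30 and -0.21 (adjusted p = 0.1, 0.0975 and 0.245), and its coactivator Mkl1 by -0.15, -0.12 and 0.10. The related coactivator Mkl2 differed by -0.30, -0.50 and -0.03 (adjusted p = 0.142, 0.0241 and 0.877), each under 2-fold. The list medians were -0.07, -0.13 and -0.13.

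**Figure D5:**
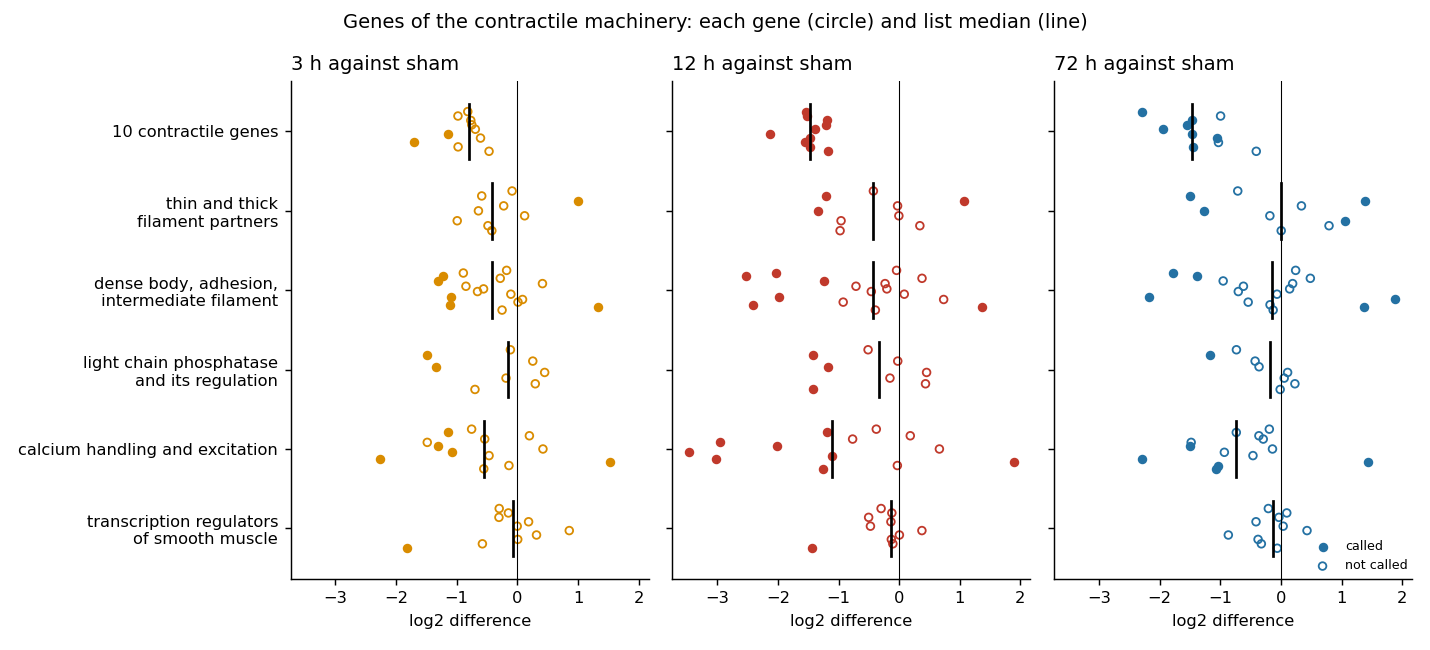
Difference from the sham control (horizontal axis, log2) of each gene in the set of 10 and in the contractile lists (vertical axis) at 3, 12 and 72 h, by brightest probe. Filled circles were called, open circles were not, and lines are medians. At 12 h the medians are -1.48 for the 10 genes and -1.11 for calcium handling.

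The cecum holds other cells that could carry some of these transcripts or change their share, and the levels of their markers moved beside the 10 genes. The summed level of a list is the sum, over its genes, of intensities relative to the 75th percentile of the array. Of 12 fibroblast and myofibroblast genes, 4 were called lower at 12 h and 8 higher at 72 h, and their summed level went from 210 to 232 in the sham control to 145 to 152 at 12 h and 535 to 1120 at 72 h. Col1a1, a chain of type I collagen, differed by -1.63 at 12 h and 3.00 at 72 h, and Cthrc1, a gene of activated fibroblasts, by 5.04 at 72 h, while Tnc, a matrix protein of wounds, was called higher throughout (1.21, 2.35 and 1.85). Leukocyte and neutrophil genes were called higher in 3, 5 and 4 of 7, with a summed level of 114 to 133 in the sham control and 831 to 856 at 12 h. At 12 h this sum rested mostly on S100a9 and S100a8. Their levels were -1.92 and -4.53 in the sham control and 8.93 and 7.80 at 12 h. In the sham control the sum rested mostly on other genes, Csf3r and Itgam, at levels of 6.37 and 4.97. Csf3r (-0.44, -0.34 and -0.40) and Itgam (-0.15, 0.16 and -0.70) were not called at 3, 12 or 72 h. The part of these cell types in the fall of the contractile genes was not tested.

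Of 8 genes of pericytes and vascular mural cells, which also express Acta2, 0 were called lower at any time. Kcnj8, a potassium channel, was called higher at 3, 12 and 72 h (1.53, 1.74 and 1.05), joined at 72 h by Notch3 (1.15) and, just past 2-fold, Pdgfrb. At 3 h Rgs5 (-0.51), Abcc9 (-0.54), Pdgfrb (-0.44), Cspg4 (-0.11) and Heyl (-0.57) were lower than sham, and Notch3 (0.41) and Mcam (0.29) higher, none called. Rgs5 (-0.58 and -0.43) and Cspg4 (-0.43 and -0.59) were also below sham at 12 and 72 h, not called. The summed level of the 8 genes was 37.5 to 38.8 in the sham control, 48.6 to 57.8 at 3 h, 44.9 to 64.6 at 12 h and 57.9 to 65.3 at 72 h. This sum rested mostly on Mcam and Kcnj8, at levels of 4.37 and 2.64 in the sham control and 4.66 and 4.17 at 3 h. Of 9 genes of pacemaker cells, enteric neurons and glia, which lie within the muscle coat, 2 were called lower at 12 h, among them S100b (-2.15), and S100b (-1.07) was called lower at 72 h. That list had medians of -0.74, -0.85 and -0.22, and a summed level of 15.4 to 18.2 in the sham control, 10.2 to 11.3 at 3 h, 11 to 14.3 at 12 h and 12.7 to 18.5 at 72 h. The 72 h range of this summed level thus took in that of the sham control.

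Of 9 epithelial genes, 0 were called at 3 and 12 h and 1, Cdx2 (-1.01), was called lower at 72 h, with medians of 0.32, 0.02 and -0.54. The summed level of these genes was 1630 to 1760 in the sham control, 1980 to 2180 at 3 h, 1620 to 1940 at 12 h and 1050 to 1360 at 72 h. Endothelial genes had 0 of 6 called at 3 and 12 h, and Cdh5 (1.76) and Emcn (1.09) were called higher at 72 h. Of 7 mesothelial genes, 3 were called lower at 3 and at 12 h, among them Upk3b and Lrrn4, which were well above background on all sham arrays and on no array at 3 h. Pdpn was called higher at each time (1.73, 2.32 and 2.58), and at 72 h Wt1 (4.40) and Upk1b (1.78) were called higher too. Of 8 skeletal muscle genes, 1, 3 and 1 were called lower at 3, 12 and 72 h. Ckm, the muscle creatine kinase, was among them at 12 and 72 h (-1.75 and -2.99) and Acta1, the skeletal actin, at 12 h (-1.08), whereas Myh1 was above background on no sham array. Actn3, called at 3 and 12 h, was well above background on 2 of 3 sham arrays and on 0 arrays at those times, and gives no fold. The summed level of this list was 3.39 to 3.95 in the sham control and 1.78 to 2.71 afterwards. The part of these cells in the result was not tested.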

How the data were processed

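The members and the gene lists were chosen with earlier results of these data known. The authors deposited, for each array, a linear and background-subtracted intensity per spot from Agilent Feature Extraction 11.5.1.1 that had not been scaled between arrays. A further table, made by the authors in GeneSpring, held scaled log2 values. Control spots (3671 per array) and outlier spots (53 to 152) were dropped, spots that repeat a probe were averaged as log2 values, and each array's 75th percentile over 56605 probes was subtracted. Probe positions follow the scanner files (mm9) and promoters follow RefSeq (GRCm38.p6), with no assignment of exons. Groups came from the labels. A limma 3.58.1 model (lmFit and eBayes, under R 4.3.3) of 4 group means was fitted to 12 arrays, and p-values were adjusted by Benjamini-Hochberg over all probes. The probe with the highest mean stood for its gene. The fit was tested on simulated data. Precision was limited by having 3 arrays in a group, and p-values set the differences between groups against the spread between these samples.

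By rule, every member was named, and of each list up to 3 called genes with the largest change, any called against its direction, the 5 genes most correlated with the members, and the sex-linked genes Xist, Ddx3y and Eif2s3y. Srf, Mkl1, Mkl2, Kdm5d, Actb, Actg1 and some list genes that were not called or not among the largest were added after their values were seen. Alternatives were quantile normalization, the percentile over probes above background, normexp (offset 50), the authors' table, a filter on dim probes, keeping outlier spots, blocks for slide or replicate number, single slides, an eBayes trend, fitting only the groups compared, the mean of a gene's probes, the methods' t-test, no fold threshold, and each array left out. The sequence of 1 probe and the values of 1 listed gene are not reported here.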

Additional observations from a re-analysis of the deposited data

Results flagged for a closer look

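For Myh11 and Cnn1 the difference from the sham control itself differed between times by more than 2-fold with an adjusted p below 0.05 (limma). Actg2, Des, Smtn, Tagln and Myocd also had such an adjusted p between times, but under 2-fold. Myh11 differed by -1.48 between 72 h and 3 h and Cnn1 by -1.26, both by limma's test of that difference. For Cnn1 the difference was -0.81 and was not called after quantile normalization.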

How the results depend on the processing

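The counts of members called lower at 12 h and 72 h, 10 and 7, were 8 to 10 and 6 to 9 under every alternative but the methods' t-test. That test, paired by replicate number, called 0 members after Benjamini-Hochberg adjustment at 3, 12 and 72 h against sham and at 72 h against 3 h, where it called 0, 0, 1 and 0 of all probes. At an unadjusted p below 0.05 it had 7, 9, 7 and 6 members, beside 18.4%, 21.6%, 22.2% and 36.9% of all genes. At 3 h the count of 2 became 6 after quantile normalization and 4 with the percentile over probes above background. It was 8 without the fold threshold, beside 9.7% of all genes. With 1 array left out it was 2 to 4 (4 without sham replicate 3, 3 h replicate 2 or 3 h replicate 3). Without the fold threshold the counts were also 2 lower at 12 h against 3 h, 2 higher at 72 h against 12 h and 4 lower at 72 h against 3 h. The shares of all genes were 5.15%, 8.75% and 26.8%. With the fold threshold, the count of 2 at 72 h against 3 h was 1 after quantile normalization and 2 to 3 with 1 array left out. The count of 0 at 12 h against 3 h was 1 with slide as a block, within slide 1 and with the mean of all probes, and 0 to 1 with 1 array left out (1 without 3 h replicate 1, 12 h replicate 2 or 12 h replicate 3).

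Of the single gene values, 1434 kept their direction and call, 32 lost the call, 45 gained it and 29 turned sign, each of the last between times after cautery where no call was made. At 72 h against 3 h, Acta2 (-0.02) was 0.45 after quantile normalization, 0.11 with the percentile over probes above background and 0.069 after normexp, and -0.14 to 0.073 with 1 array left out. Tagln (-0.44) was 0.032 after quantile normalization. Lmod1 (0.68) was -0.032 after normexp and -0.51 with slide as a block. Myocd (0.06) was -0.017 after normexp, -0.58 with slide as a block and -0.048 to 0.26 with 1 array left out. At 12 h against 3 h, Lmod1 (0.15) was -0.055 after normexp, -0.24 with slide as a block and within slide 1, and -0.24 to 0.43 with 1 array left out. At 72 h against 12 h, with slide as a block and within slide 2, Acta2 (0.52) was -0.0051, Tagln (0.43) -0.0095, Lmod1 (0.53) -0.27 and Mylk (0.02) -0.20, and Mylk was -0.039 as a mean of all probes and -0.074 to 0.14 with 1 array left out. The cause was not tested.

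Within arrays, the 12 h difference from Myh11 was -0.054 for Acta2 and -0.027 for Tagln after normexp, and -0.035 to 0.13 and -0.015 to 0.18 with 1 array left out. The 72 h difference was 1.13 to 1.43 for Acta2 and 1.13 to 1.40 for Tagln with 1 array left out, and 1.49 and 1.47 after quantile normalization, an alternative chosen after seeing the data. Quantile normalization moved the median of all probes at 72 h from -0.15 to -0.02.

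Replicate numbers did not pair the samples: same-numbered arrays of different groups deviated together with correlations from -0.309 to 0.188, over 0.1 in 4 of 18 pairs, and 2 of 12 arrays correlated best with their own number. With the replicate block, 8 members were called lower at 72 h in place of 7.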
